A study of Homo sapiens with 4 samples.

Results

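The polyamine genes examined here were *ODC1*, *AZIN1*, *OAZ1*, *OAZ2*, *AMD1*, *SRM*, *SMS*, *SAT1*, *PAOX* and *SMOX*, that is, ornithine decarboxylase with its antizyme system and the synthases, acetyltransferase and oxidases of the pathway. They were chosen by name and matched by GENCODE symbol to the Ensembl identifiers of the count table, and all 10 were found among its 64252 genes. RNA-seq was performed on total RNA from SK-N-BE(2), a human neuroblastoma (NB) cell line with amplified *MYCN*, carrying either scrambled shRNA (sh-Scb, the control group) or an shRNA against *SAPCD2* (sh-SAPCD2), with 2 libraries per group. The study's methods describe stable knockdown cells, made by lentiviral delivery and puromycin selection. A figure legend of the study calls sh-Scb cells stably transfected too. How the cells of these libraries were made, and whether the controls had passed that selection, is not stated. The study's heat map names the knockdown in these libraries as shRNA #1 against *SAPCD2*, so a single hairpin in a single cell line stands behind every difference below, whereas the labels give only sh-SAPCD2. The labels do not say that the 2 libraries of a group came from separate cultures, and the p-values therefore measure only the spread between these libraries.

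Polyamines (putrescine, spermidine and spermine) are small positively charged molecules that bind nucleic acids and are required for cell growth. Ornithine decarboxylase makes putrescine from ornithine. Spermidine synthase and spermine synthase then add aminopropyl groups taken from decarboxylated S-adenosylmethionine, which the AMD1 enzyme supplies. Antizymes bind ornithine decarboxylase and send it to the proteasome, antizyme inhibitor sequesters the antizymes, and the acetyltransferase SAT1 and the oxidases PAOX and SMOX break spermine and spermidine down again. In NB, *ODC1* is a known target gene of MYCN, and its inhibition by difluoromethylornithine is used in the clinic.

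*SAPCD2* had 2308 and 2263 counts in the sh-Scb libraries and 895 and 1648 counts in the sh-SAPCD2 libraries, or 42.7% and 63.3% of the control mean after scaling, with a log2 fold change of −0.91 and an adjusted p of 0.0206. The library totals ran from 25347900 to 31850997 counts, and the detection floor of 3 counts corresponded to 0.0955 to 0.119 CPM (library-scaled counts, TMM method). Across genes, log2 CPM correlated at 0.986 between the sh-Scb libraries, at 0.98 between the sh-SAPCD2 libraries and at 0.954 to 0.961 between groups. All 7 adrenergic NB markers read here were expressed, and 2 of them (*DBH* and *CHGB*) were called lower, with a summed level of the 7 of 3188 and 3094 CPM in the controls and of 2436 and 3156 CPM after knockdown. Markers of leukocyte, epithelial, endothelial, fibroblast and hepatocyte identity summed to 17.3 and 17.5 CPM in the controls and to 18.2 and 18.8 CPM after knockdown, with 3 of the 5 tested and 0 called. The leukocyte marker *PTPRC* had 268 and 246 counts in the controls and 313 and 334 counts after knockdown. The epithelial marker *EPCAM* had 99 and 126 against 86 and 116 counts, and the fibroblast marker *COL1A1* had 93 and 102 against 54 and 134. The hepatocyte marker *ALB* had 17 and 7 against 4 and 7 counts. The endothelial marker *PECAM1* had 0 counts in 3 of the 4 libraries and 4 counts in sh-SAPCD2 replicate 1. The part of these marker differences in the differences below was not tested. Because bulk RNA was measured, fewer cells expressing a gene and less RNA per cell cannot be told apart.

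The sequence that MYC family proteins bind together with MAX is the E-box CACGTG, and it was searched for on both strands because *MYCN* is amplified in these cells. In the RefSeq promoter windows of GRCh38.p14, from 250 bases before to 50 bases after a start, 7 of the 10 genes were matched, with 10 windows. The E-box was found in windows of *SRM* and *ODC1*, against 7.26% of all 35116 windows. When the search was moved to the 1000 bases after the start of each gene's canonical GENCODE transcript, a choice made after the data were seen, 4 of the 10 genes held an E-box, against 13.5% of 19518 protein-coding genes. The genes with at least 2 in that stretch were *ODC1* and *SRM*, against 1.42% of protein-coding genes. The E-boxes of *SRM* lie at −199 from the start and, inside intron 1, at 452 and 542 bases after it. Those of *ODC1* lie in intron 1 at 287 and 321 bases after the start of the canonical transcript, and at −29 and 6 from another RefSeq start. *AZIN1* held an E-box across the end of its exon 1, and *PAOX* held an E-box in exon 2. The regions of *SRM* and *ODC1* are printed because both genes changed, in opposite directions. The stretch before the *SRM* start is chr1:11060019-11060268, the *SRM* intron stretch is chr1:11059460-11059579 and the *ODC1* intron stretch is chr2:10447990-10448053, all on the minus strand and read 5′ to 3′, with the E-boxes in capitals.
SRM before the start: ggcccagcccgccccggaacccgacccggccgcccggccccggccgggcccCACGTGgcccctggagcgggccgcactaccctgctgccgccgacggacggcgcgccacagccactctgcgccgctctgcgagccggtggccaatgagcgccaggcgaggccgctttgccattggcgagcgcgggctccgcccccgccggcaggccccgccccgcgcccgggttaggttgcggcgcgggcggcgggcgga
SRM intron 1: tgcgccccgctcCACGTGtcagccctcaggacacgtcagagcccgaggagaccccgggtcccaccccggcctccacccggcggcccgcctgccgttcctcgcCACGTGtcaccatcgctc
ODC1 intron 1: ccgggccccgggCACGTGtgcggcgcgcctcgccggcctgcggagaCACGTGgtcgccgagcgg
The share of G and C was 82% before the *SRM* start, 74.2% in the *SRM* intron stretch and 82.8% in the *ODC1* intron stretch. None of the E2F words TTTCCCGC, TTTGGCGC, TTTCGCGC and TTTGCCGC was found in the windows of the 7 matched genes, and 3.31% of all windows held any of them, which says only that these letters are not in these windows.

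Antizymes are made only when the ribosome skips a base at a stop codon in their mRNA, a frameshift that polyamines promote. The frameshift sites of the *OAZ1* and *OAZ2* transcripts are shown because both genes were measured at high counts and share this control of translation, which RNA-seq does not read. In the hg38 annotation the skipped base is the T of the stop codon, at position 2271443 for *OAZ1*, within chr19:2271428-2271457 on the plus strand, and at position 64691515 for *OAZ2*, within chr15:64691501-64691530 on the minus strand. The capitals mark the codon before the shift and the stop codon.
OAZ1 frameshift site: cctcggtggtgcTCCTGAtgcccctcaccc
OAZ2 frameshift site: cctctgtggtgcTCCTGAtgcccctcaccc
The 6 bases in capitals were identical in both genes.

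The knockdown oligo itself has short matches in some of these genes. The guide arm of shRNA #1 is printed with its bases 5 to 11 in capitals. The 7 bases complementary to guide bases 2 to 8 (ACCTTCA) occurred in the 3′ untranslated region of *ODC1*, within chr2:10440040-10440069. The 7 bases complementary to the capitals (TCCACCT) occurred in that of *SRM*, within chr1:11054661-11054690. The shifted form was singled out after earlier results of these libraries were known, and it was found in 15.8% of 19550 annotated 3′ untranslated regions, whereas the form for bases 2 to 8 was found in 11.3%. None of the 10 genes held CCACCTA, a shifted form of 6 bases followed by an A, which 6.97% of these regions hold. Nor did any hold AGAGGTC, held by 7.87% of the regions, or GAGGTCA, held by 14.7%. These 2 forms pair with the start of the passenger arm and the 1 base before it. Other stretches of the passenger arm were not searched. Of the 21 bases of the full target, the *SRM* stretch shared 12 and the *ODC1* stretch shared 11. Both numbers include the 7 bases by which each stretch was found. How many bases other regions with these 7 share was not counted, so the numbers do not show a longer match than usual.
Guide arm of shRNA #1: atgaAGGTGGAatccagaggt
SRM 3′ site: tctctctggcgtTCCACCTccaagcctata
ODC1 3′ site: gtgtcccctcccACCTTCAtgcctgtgaga
*SRM* fell and *ODC1* rose after knockdown, as described below. The part of these matches in either change was not tested.

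Levels between genes were compared as CPM per kilobase of exon. In the control group, *OAZ1* (83.3 ± 2.75, SD, n = 2) and *SMS* (83.2 ± 1.26) were at the same height within their spread. *SRM* followed at 65.2 ± 2.92, *ODC1* at 57.0 ± 0.671 and *AZIN1* at 42.7 ± 0.378, each apart from the next by more than the SDs. Lower down, *AMD1* (13.3 ± 0.368) and *OAZ2* (12.3 ± 0.272) were close but apart by more than their SDs, and *SAT1* reached 6.17 ± 0.706. The oxidase genes *SMOX* (1.29 ± 0.44) and *PAOX* (0.935 ± 0.317) were lowest and did not differ beyond their spread. By the length of all exons, the breakdown genes thus held the 3 lowest places and the synthases *SMS* and *SRM* the places just under *OAZ1*. After knockdown the per-kilobase order changed at the top, and lower down *OAZ2* and *AMD1* changed places. *OAZ1* was at 121 ± 38.3, *ODC1* at 89.8 ± 9.49, *SMS* at 80.1 ± 2.62, *AZIN1* at 57.5 ± 5.42 and *SRM* at 23.8 ± 6.60. The gap between *OAZ1* and *ODC1* was then within the SD of *OAZ1*, and *SRM* had come down to the height of *OAZ2* (20.6 ± 0.941) within its spread. *AMD1* was at 13.6 ± 0.726, *SAT1* at 8.51 ± 1.08, *SMOX* at 2.23 ± 0.897 and *PAOX* at 1.24 ± 0.266, in the same order as in the controls. With the length of the longest transcript in place of all exons, 4 genes took another place in the control order, *OAZ1* with *SMS* and *OAZ2* with *SAT1*. With that length *SRM* stood at 98.0, close to *OAZ1* at 101 and *SMS* at 104, so its distance from them depends on the length used. The SDs cover the libraries only, not the choice of length. The canonical transcript of *OAZ1* has 1148 bases against 3436 in all exons, and that of *SMS* has 1703 against 2130. For *OAZ2* it has 1934 against 7671, and for *AMD1* 3423 against 10193. The places of these genes, and the tie of *OAZ1* with *SMS*, therefore also depend on the length used.

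**Figure D1:**
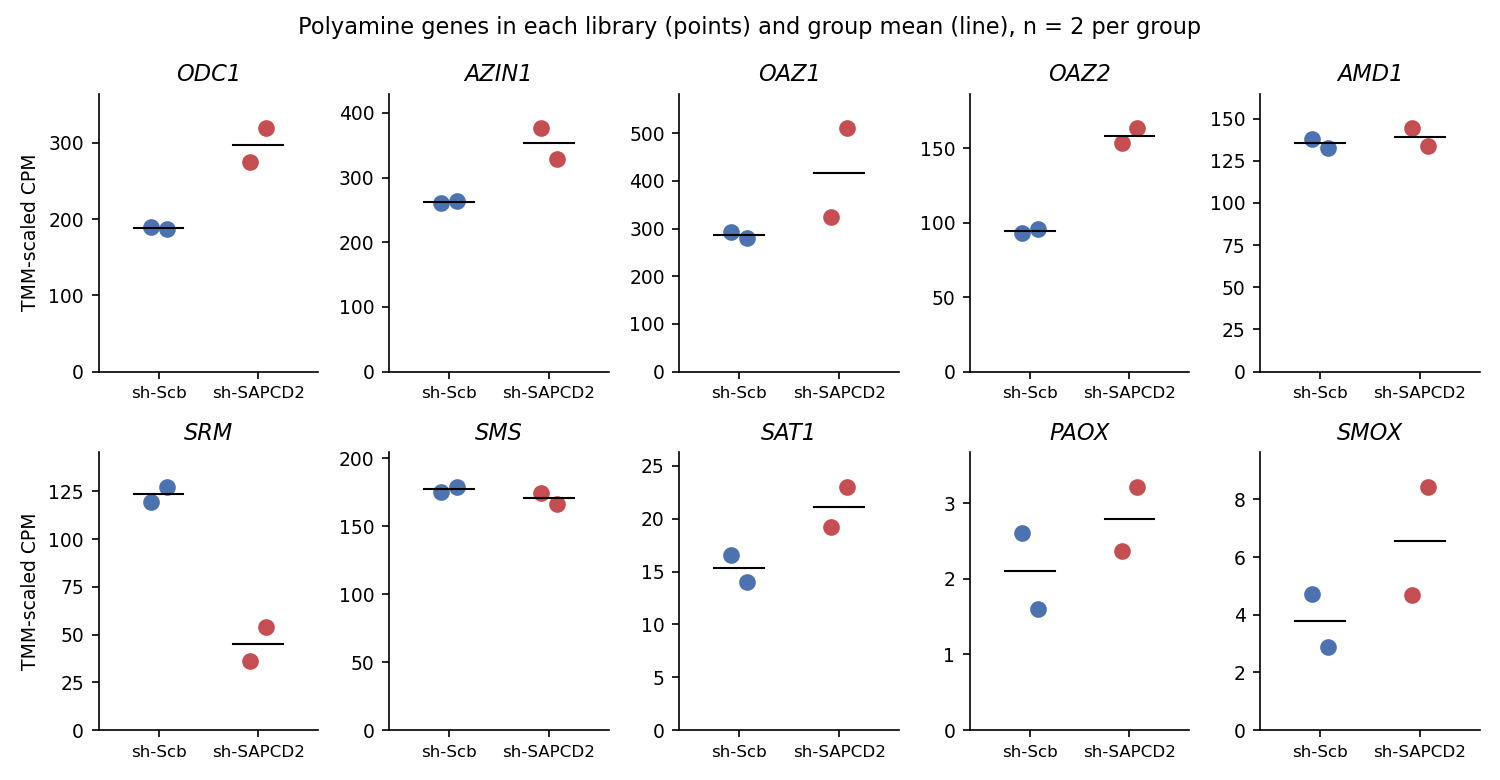
TMM-scaled CPM of the 10 polyamine genes in each library (points) with the group mean (line), n = 2 per group, each panel with its own axis from 0. The sh-SAPCD2 points of *SRM* lie far under the sh-Scb points, those of *ODC1*, *AZIN1* and *OAZ2* lie above them, and those of *OAZ1* lie wide apart from each other.

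Counts of sh-SAPCD2 and sh-Scb libraries were compared with the quasi-likelihood test of edgeR over the 18779 genes left by its low-count filter, all 10 polyamine genes among them. At an adjusted p under 0.05, 3 of the 10 were called higher after knockdown (*ODC1*, *AZIN1* and *OAZ2*), against 12.4% of all tested genes. *SRM* was the 1 gene called lower, against 12.5% of all tested genes. It was also the 1 polyamine gene past an absolute log2 fold change of 1, the threshold for a differentially expressed gene (DEG), and 9.84% of all tested genes were DEGs in either direction. With sh-SAPCD2 replicate 1 left out, or with sh-Scb replicate 1 left out, 2 of the 10 were DEGs, *SRM* and *SMOX*, where 12.7% and 8.95% of all tested genes were. The groups did not overlap in CPM for 7 of the 10 genes, near the 67% of all tested genes. The median log2 fold change was 0.45 over the 10 genes and 0.02 over all tested genes, and 8 of the 10 were above 0. Without sh-SAPCD2 replicate 2 that median was 0.25. The number of polyamine genes called was 4 with all libraries, 2 without sh-Scb replicate 1, 1 without sh-Scb replicate 2, 7 without sh-SAPCD2 replicate 1 and 5 without sh-SAPCD2 replicate 2. Over all tested genes the share called in either direction moved in the same way, from 24.8% with all libraries to 11.9%, 11.7%, 42.4% and 35.6% in these 4 fits. For any of these genes alone, an exact permutation test of 2 libraries against 2 cannot give a two-sided p below 0.333.

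**Figure D2:**
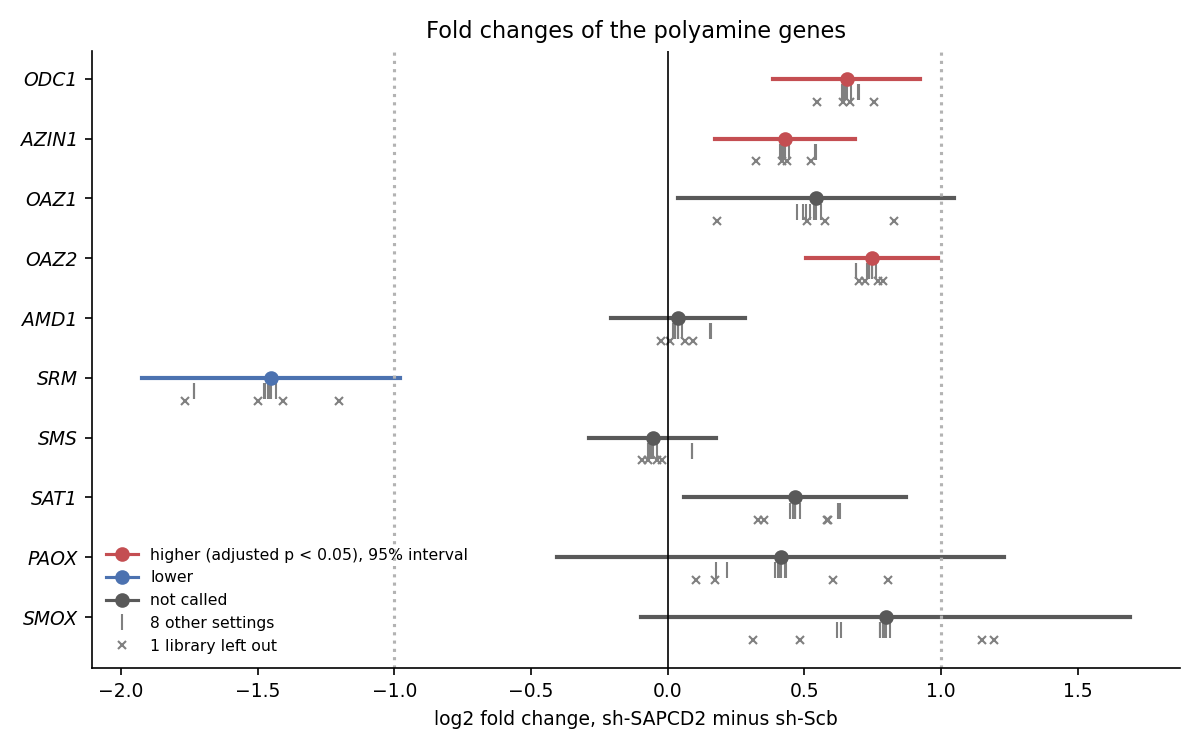
Log2 fold change of each polyamine gene, sh-SAPCD2 minus sh-Scb, with its 95% interval (point and bar, colored by call), the values under 8 other settings (ticks) and with 1 library left out (crosses). Dotted lines mark the DEG threshold of 1 in either direction. *SRM* keeps to the left of −1 at every tick and cross, and the crosses of *OAZ1* and *SMOX* are spread widely.

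*ODC1* (ENSG00000115758, chromosome 2 from 10439968 to 10448327 on the minus strand), which encodes the enzyme that opens polyamine synthesis, was measured at 190 and 187 CPM in the sh-Scb libraries and at 275 and 319 CPM in the sh-SAPCD2 libraries. Both knockdown libraries lay above both controls. The log2 fold change was 0.66 ± 0.111 (SE), with a 95% interval from 0.39 to 0.92 and an adjusted p of 0.0110. The call was lost without sh-Scb replicate 1 (0.67, adjusted p 0.109) or without sh-Scb replicate 2 (0.64, adjusted p 0.124), and the size hardly moved.

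*AZIN1* (ENSG00000155096, on chromosome 8), the antizyme inhibitor that frees ornithine decarboxylase from antizyme, was at 260.2 and 264 CPM in the controls and at 376 and 329 CPM after knockdown. The groups did not overlap, and here sh-SAPCD2 replicate 1 was the higher of the knockdown libraries. *AZIN1* rose by a log2 fold change of 0.43 ± 0.106 (SE), with an interval from 0.17 to 0.69 and an adjusted p of 0.0321. Its adjusted p was 0.374 without sh-Scb replicate 1 and 0.35 without sh-Scb replicate 2, at log2 fold changes of 0.42 and 0.44. Without a filter on low counts, its log2 fold change of 0.43 had an adjusted p of 0.0793.

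*OAZ2* (ENSG00000180304, chromosome 15 from 64687573 to 64703281 on the minus strand), an antizyme, was at 92.8 and 95.7 CPM in the controls and at 153 and 163 CPM after knockdown. Its libraries agreed closely in each group and the groups were well apart. The resulting log2 fold change of 0.75 ± 0.0999 (SE), with an interval from 0.50 to 0.99, had an adjusted p of 0.00589. Without sh-Scb replicate 1 the log2 fold change was 0.72 with an adjusted p of 0.0824, and without sh-Scb replicate 2 it was 0.77 with an adjusted p of 0.0608.

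*OAZ1* (ENSG00000104904, chromosome 19 from 2269509 to 2273490 on the plus strand), the main antizyme gene in most tissues, was at 293 and 279.6 CPM in the controls. The sh-SAPCD2 libraries stood at 324 in replicate 1 and 510.1 in replicate 2. Both were above the controls, replicate 1 only slightly. A log2 fold change of 0.54 ± 0.208 (SE) was estimated, with an interval from 0.04 to 1.05 and an adjusted p of 0.107, so *OAZ1* was not called. Its size turned on 1 library, with a log2 fold change of 0.18 (adjusted p 0.0237) without sh-SAPCD2 replicate 2 and of 0.83 (adjusted p 0.00027) without sh-SAPCD2 replicate 1. DESeq2 gave 0.56 with an adjusted p of 0.0145, below the threshold. *JSRP1*, a gene that overlaps *OAZ1* on the opposite strand, had 39 and 25 counts in the controls and 131 and 295 counts after knockdown, at most 1.84% of the *OAZ1* counts, and its part in the *OAZ1* counts was not tested.

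Of the genes that make spermidine and spermine, *SRM* fell and the other two were not called. *SRM* (ENSG00000116649, chromosome 1 from 11054584 to 11060020 on the minus strand) encodes spermidine synthase, which turns putrescine into spermidine. It had 3304 and 3506 counts in the sh-Scb libraries and 918 and 1694 counts in the sh-SAPCD2 libraries, or 120 and 127 CPM against 36.3 and 53.9 CPM. The knockdown libraries kept 29.4% and 43.7% of the control mean, and both lay far under both controls. The log2 fold change was −1.45 ± 0.195 (SE), with an interval from −1.92 to −0.98 and an adjusted p of 0.00591, which placed *SRM* at percentile 3.39 of the log2 fold changes of all tested genes. *SRM* was called in 12 of 12 other settings, with log2 fold changes from −1.77 to −1.20 and adjusted p values up to 0.0310. Its lowest level was in sh-SAPCD2 replicate 1, which was also the library with less *SAPCD2*. Among the other called polyamine genes, *ODC1* (275 and 319 CPM in replicates 1 and 2) and *OAZ2* (153 and 163 CPM) moved further in replicate 2. *AZIN1* (376 and 329 CPM) moved further in replicate 1. A relation to the *SAPCD2* level was not tested. The processed pseudogenes of *SRM* held at most 5 counts in any library.

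*SMS* (ENSG00000102172, chromosome X from 21940709 to 21994837 on the plus strand) encodes spermine synthase, the next step after spermidine. It was at 175 and 179 CPM in the controls and at 174 and 167 CPM after knockdown. The knockdown values lay just under the controls, with a log2 fold change of −0.06 ± 0.0949 (SE), an interval from −0.29 to 0.18 and an adjusted p of 0.702. With a correction for GC content and length the log2 fold change was 0.09, on the other side of 0.

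*AMD1* (ENSG00000123505, chromosome 6 from 110874770 to 110898879 on the plus strand) encodes adenosylmethionine decarboxylase. It was at 138 and 133 CPM in the controls and at 144 and 134 CPM after knockdown, and the groups overlapped. The log2 fold change was 0.04 ± 0.1 (SE), with an interval from −0.21 to 0.28 and an adjusted p of 0.815, and without sh-SAPCD2 replicate 1 it was −0.02. For *SMS* and *AMD1* the intervals leave out changes as large as that of *SRM*.

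The change of *SRM* against its neighbors in the pathway can be read within each library. As *SMS* and *AMD1* were not called, these ratios restate the change of *SRM* from the same counts. The per-kilobase level of *SMS* was 1.30 and 1.25 times that of *SRM* in the sh-Scb libraries, and 4.28 and 2.75 times in the sh-SAPCD2 libraries. The level of *SRM* was 4.66 and 5.16 times that of *AMD1* in the controls and 1.35 and 2.17 times after knockdown. Neither ratio overlapped between groups, and in CPM the groups did not overlap for 67% of all tested genes. For ornithine decarboxylase and its antizyme, the per-kilobase ratio of *ODC1* to *OAZ1* was 0.674 and 0.695 in the controls and 0.881 and 0.65 after knockdown, so that the knockdown libraries lay on either side of the controls. The ratio of *AZIN1* to *OAZ1* also spread to either side, from 0.498 and 0.528 in the controls to 0.651 and 0.362 after knockdown. These ratios are descriptions and were not tested.

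None of the 3 breakdown genes was called. *SAT1* (ENSG00000130066, chromosome X from 23783173 to 23786210 on the plus strand), the acetyltransferase that marks spermidine and spermine for export or oxidation, was at 16.5 and 14.1 CPM in the controls and at 19.2 and 23.0 CPM after knockdown. Its groups did not overlap, but the log2 fold change of 0.47 ± 0.167 (SE), with an interval from 0.06 to 0.87, had an adjusted p of 0.0908. It passed the threshold without sh-SAPCD2 replicate 1, at 0.58 with an adjusted p of 0.0246, and with the correction for GC content and length, at 0.63 with an adjusted p of 0.0241.

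*SMOX* (ENSG00000088826, chromosome 20 from 4120980 to 4187747 on the plus strand), which oxidizes spermine directly, had 130 and 79 counts in the controls and 119 and 265 counts after knockdown, or 4.71 and 2.87 CPM against 4.70 and 8.44 CPM. Only sh-SAPCD2 replicate 2 stood above the controls. The log2 fold change was 0.80 ± 0.368 (SE), with an interval from −0.10 to 1.69 and an adjusted p of 0.163. It was 1.20 (adjusted p 0.0302) without sh-Scb replicate 1, 1.15 (adjusted p 0.0391) without sh-SAPCD2 replicate 1, 0.31 without sh-SAPCD2 replicate 2 and 0.48 without sh-Scb replicate 2.

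*PAOX* (ENSG00000148832, chromosome 10 from 133379261 to 133391694 on the plus strand), the oxidase of acetylated polyamines, had 72 and 44 counts in the controls and 60 and 101 counts after knockdown, or 2.61 and 1.60 CPM against 2.37 and 3.22 CPM. The groups overlapped. Its log2 fold change of 0.41 ± 0.337 (SE) had an interval from −0.41 to 1.23 and an adjusted p of 0.407, wide enough that a change past the DEG threshold could not be told from none. Leaving out single libraries moved it from 0.10 without sh-Scb replicate 2 to 0.80 without sh-Scb replicate 1.

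*MYCN*, whose protein binds E-boxes, had 89361 and 87449 counts in the controls and 149464 and 222692 counts after knockdown, or 3207 ± 40.1 CPM (SD, n = 2) against 6498 ± 839 CPM. Its log2 fold change was 1.02 with an adjusted p of 0.00378, whereas its partner *MAX* had 0.32 with an adjusted p of 0.114, and was not called. Without sh-SAPCD2 replicate 1 *MAX* had 0.43 (adjusted p 0.00515), without sh-SAPCD2 replicate 2 it had 0.20 (adjusted p 0.0736), and without sh-Scb replicate 1 or 2 the adjusted p was 0.495 or 0.621. *MYC* had 0 counts in 3 libraries and 3 in sh-SAPCD2 replicate 2 and was not tested. Side by side in the 2 knockdown libraries, *MYCN* stood at 184% and 221% of its control mean, *ODC1* at 146% and 169%, and *SRM* at 29.4% and 43.7%. *ODC1* and *SRM* thus moved in opposite directions. Both hold E-boxes in intron 1, and the part of *MYCN* in either change was not tested.

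The wider pathway was read from 5 lists with 39 genes in all, of which 32 were tested, 9 were called higher and 2 lower, with 6 DEGs, beside the shares of 12.4%, 12.5% and 9.84% over all tested genes. Of the ornithine and arginine supply genes, 4 of 8 tested were higher and 0 lower. *ASS1* and *ASL*, the enzymes that make arginine from citrulline, rose with log2 fold changes of 1.33 (adjusted p 0.00317) and 1.30 (adjusted p 0.00498). *ASS1* stood at 38.5 and 40.9 CPM in the controls and at 91.5 and 107 CPM after knockdown, with the groups well apart. *ALDH18A1*, which starts the route from glutamate to ornithine and proline, rose by 0.62 on the log2 scale (adjusted p 0.00764). *OAT*, which links ornithine to glutamate semialdehyde and was named after its values were seen, rose by 0.59 (adjusted p 0.00948). *ASS1* and *ASL* were called in 12 of 12 other settings. The calls of *ALDH18A1* and *OAT* were lost without either sh-Scb library, with adjusted p values of 0.137 and 0.176 without replicate 1 and of 0.155 and 0.179 without replicate 2. The urea cycle genes *ARG1* and *OTC* were not tested because of low counts.

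Of the methionine cycle and methylthioadenosine salvage genes, 1 of 8 tested was higher, near the 12.4% of all tested genes. *MTAP*, which clears the methylthioadenosine released by both synthases, rose by 0.44 on the log2 scale (adjusted p 0.0294). *ENOPH1*, of the same salvage route, had 0.33 (adjusted p 0.0662), and *MAT2B*, the regulatory subunit of methionine adenosyltransferase, had −0.30 (adjusted p 0.0932). The call of *MTAP* was lost without sh-Scb replicate 1 (adjusted p 0.285) or replicate 2 (adjusted p 0.433), whereas *ENOPH1* and *MAT2B* passed the threshold without sh-SAPCD2 replicate 1 (adjusted p 0.00656 and 0.0178) or replicate 2 (adjusted p 0.0161 and 0.00996). *MAT1A* was under the floor in every library.

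Of 8 tested transport genes, 2 were higher and 1 lower, beside 12.4% higher and 12.5% lower over all tested genes. *SLC47A1*, an exporter of organic cations, fell by 2.73 on the log2 scale (adjusted p 0.00648), from 86 and 119 counts to 10 and 22 counts. *SLC3A2*, the heavy chain of several amino acid transporters, rose by 1.09 (adjusted p 0.0143), and *ATP13A3*, a polyamine transporter of the P5B ATPase family, rose by 0.47 (adjusted p 0.0317). *SLC47A1* was called in 12 of 12 other settings, and the call of *ATP13A3* was lost without sh-Scb replicate 1 (adjusted p 0.24) or replicate 2 (adjusted p 0.395). *SLC22A2* and *SLC22A3* were under the floor in every library.

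Spermidine is the donor for hypusine, a modified lysine of the translation factor eIF5A. *EIF5A2* rose by 1.10 on the log2 scale (adjusted p 0.00579), from 16.5 and 17.8 CPM to 39.8 and 34.0 CPM. *DHPS*, which transfers the aminobutyl group of spermidine to eIF5A, fell by 0.50 (adjusted p 0.0491), close to the threshold. *DOHH*, which completes hypusine, had 0.99 (adjusted p 0.0634), with 11.7 and 13.1 CPM in the controls and 16.7 and 32.5 CPM after knockdown. It passed the threshold in 7 of 12 other settings, among them without sh-SAPCD2 replicate 1 (1.39, adjusted p 0.00102) and without sh-Scb replicate 1 (adjusted p 0.0462) or replicate 2 (adjusted p 0.0164). The value of *DOHH* was 0.44 (adjusted p 0.059) without sh-SAPCD2 replicate 2 and 0.53 (adjusted p 0.0202) with the correction for GC content and length. The call of *DHPS* was lost without sh-Scb replicate 1 (adjusted p 0.275) or replicate 2 (adjusted p 0.296). Among paralogs of the 10 genes, 1 of 4 tested was higher, beside 12.4% of all tested genes. That gene, *SAT2*, had a log2 fold change of 1.02 (adjusted p 0.0148), and 0.90 (adjusted p 0.0564) without sh-Scb replicate 2. *AZIN2* had −0.65 (adjusted p 0.307) and *OAZ3* had 0.19 (adjusted p 0.75), both at low counts, and *OAZ3* turned to −0.29 without sh-SAPCD2 replicate 1. The number of called genes in the wider lists was 11 with all libraries, 7 without sh-Scb replicate 1, 6 without sh-Scb replicate 2, 23 without sh-SAPCD2 replicate 1 and 16 without sh-SAPCD2 replicate 2, beside 24.8%, 11.9%, 11.7%, 42.4% and 35.6% of all tested genes.

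**Figure D3:**
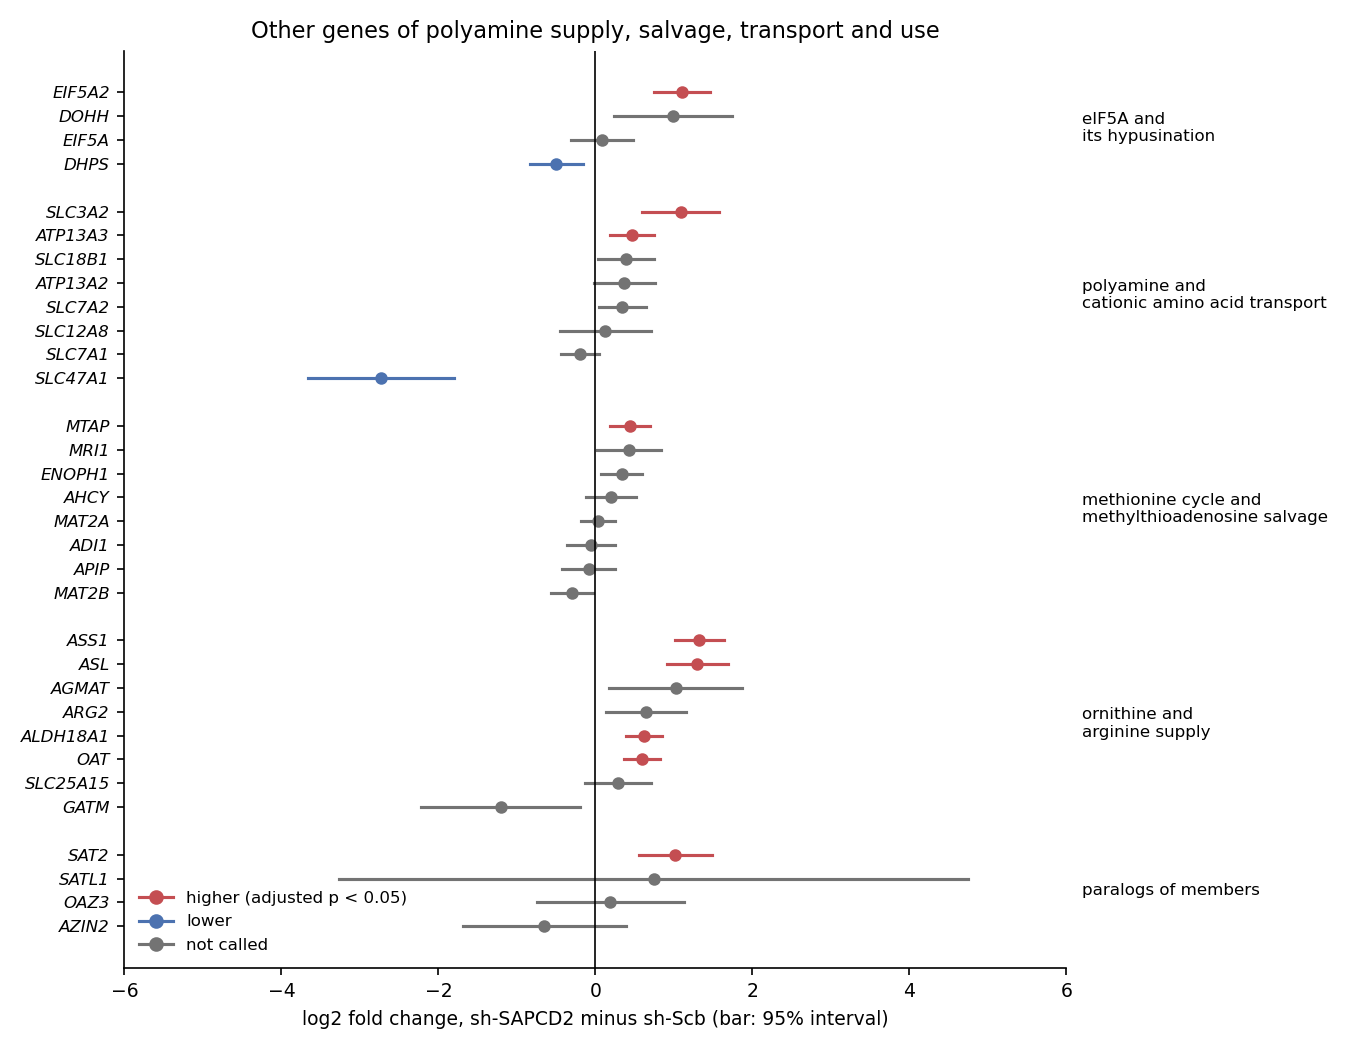
Log2 fold change, sh-SAPCD2 minus sh-Scb, of the 32 tested genes of the wider lists with 95% intervals (bars), grouped by list and colored by call. *SLC47A1* lies far to the left, *ASS1*, *ASL*, *EIF5A2*, *SLC3A2* and *SAT2* lie right of 1, and most of the methionine cycle genes lie near 0.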

How the data were processed

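Total RNA of 4 libraries of SK-N-BE(2) cells was sequenced. Reads were aligned by the authors with HISAT2 2.2.0 (hg38), passed through StringTie, and deposited as whole-number counts per Ensembl gene, not normalized for library size. The step from coverage to counts, the strandedness and the treatment of reads with several matches are not given in the sources used here, so reads of overlapping genes on opposite strands cannot be told apart. Groups were taken from the labels.

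Counts were scaled by TMM and tested in R 4.3.3 by edgeR 4.0.16 (quasi-likelihood, two-sided, group only) after filterByExpr (minimum count 10, minimum total 15), with Benjamini-Hochberg adjustment over 18779 genes. The common biological variation (as a coefficient) came to 15.4%. Genes were called at an adjusted p under 0.05 and were DEGs with an absolute log2 fold change over 1. The test was tried on simulated counts first. CPM values are TMM-scaled, and the depth floor of 3 counts covers counting error only.

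Positions and lengths came from GENCODE 44 on hg38, which matched 17467 of the tested genes, and promoter windows from RefSeq (GRCh38.p14). Sequences were read from the hg38 reference, from RefSeq or, for the shRNA, from the study's oligo list. The genes and lists were chosen with earlier results of these data known. Genes named in the text are the 10 polyamine genes, *SAPCD2*, *MYCN*, *MYC* and *MAX*, the markers, the 3 genes with the smallest p of each wider list and any wider gene under the floor in every library, and *OAT*, *ARG1*, *OTC* and *JSRP1* were named after their values were seen. Some genes of the marker list are not reported here. Other settings were DESeq2 1.42.0, library totals, DESeq2 size factors, the unfiltered table and a filter at a mean of 1 CPM. Further settings were a replicate block, a loess correction for GC content and length (span 0.3) made in R, both together, and each library left out. Where a library was left out, the lone library of its group was assumed to vary like the other group.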

Additional observations from a re-analysis of the deposited data

How the results depend on the processing

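Of 370 log2 fold changes recomputed under other settings, 314 kept their direction and their side of the threshold. *SRM* was called in all 12 other settings, and *PAOX*, *AMD1* and *SMS* were called in none of them. The direction of *AMD1* turned without sh-SAPCD2 replicate 1 (−0.0237), and that of *SMS* turned with the GC content and length correction, alone (0.0874) or with the replicate block (0.0873). Among the wider genes, *OAZ3* ran from −0.29 to 0.567 with 1 library left out. With 1 library left out at a time, log2 fold changes ran from 0.55 to 0.75 for *ODC1*, 0.32 to 0.52 for *AZIN1*, 0.18 to 0.83 for *OAZ1*, 0.70 to 0.79 for *OAZ2*, −0.0237 to 0.0923 for *AMD1*, −1.77 to −1.20 for *SRM*, −0.09 to −0.02 for *SMS*, 0.33 to 0.59 for *SAT1*, 0.10 to 0.80 for *PAOX*, 0.31 to 1.20 for *SMOX* and −1.23 to −0.67 for *SAPCD2*. The number of called polyamine genes then ran from 1 to 7, that of DEGs among them from 1 to 2, that of called genes in the wider lists from 6 to 23, and the median log2 fold change from 0.25 to 0.59. The share of all tested genes called ran from 11.7% to 42.4% over the same fits, beside 24.8% with all libraries.

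Without a filter on low counts, the calls of *AZIN1* (0.43, adjusted p 0.0793) and *SAPCD2* (−0.91, adjusted p 0.0749) were lost and 6 wider genes were called, with more genes entering the adjustment and 6.47% of all genes called, and the calls of *SAT2*, *MTAP*, *SLC3A2*, *ATP13A3* and *DHPS* were lost among those. *OAZ1* passed the threshold with DESeq2 (0.56) and with the GC content and length correction (0.50), and *SAT1* passed it with that correction (0.63). That correction gave 19 called wider genes and called 38.7% of all tested genes. A DEG threshold of 0.5 gave 3 polyamine DEGs and no fold threshold gave 4. With the longest transcript, 4 genes took another rank in the control levels. The E-box was found in 1 gene within 150 bases before the start and in 4 within 1000 bases after it, the latter added after seeing the data. The causes of these differences were not tested, except that the filter and thresholds change what is counted.

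The labels number the libraries alike in both groups, and deviations of same-numbered libraries correlated at 0.0013 over genes. With 2 libraries per group, this single value cannot show whether same-numbered libraries were handled together. The labels do not say so either. With the replicate block, *OAZ1* (0.51), *SMOX* (0.78) and the wider gene *DOHH* (0.92) passed the threshold and 6 polyamine genes were called, with 29.6% of all tested genes called. With the block and the GC content and length correction together, *OAZ1* (0.47) and *SAT1* (0.62) passed it and 18 wider genes were called, with 38.1% of all tested genes called.

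The counts behind the oxidases were the lowest. *PAOX* and *SMOX* had at most 265 counts in any library, whereas the genes of synthesis and of the antizyme system had at least 918.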
